A study of Drosophila melanogaster with 56 samples.

Results

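The nuclear genes of the mitochondrial respiratory chain were followed in whole flies of both sexes and 8 genotypes of the Obp50a-d cluster. Members were taken by name from the table of 17490 genes: every symbol that begins with ND-, UQCR-, ATPsyn, COX and a digit, or Sdh and a capital letter, which gave 80 genes. They were ordered by complex, and 18 of them whose symbol ends in L, alone or with a digit, were treated as copies of another subunit gene, with ND-MNLL kept among the subunits because its L belongs to the subunit's own name. The other 62 were treated as subunits, 34 of complex I, 4 of complex II, 6 of complex III, 7 of complex IV and 11 of complex V. Of the 80 genes, 77 passed the filter on low counts, 60 subunits and 17 copies. COX5BL, ND-MNLL and UQCR-14 had 0 counts in all 56 libraries. Every exon base of these 3 genes lies within a gene on the other strand (CG9596, CG45089 and CG32576), and counting did not use strand, so their 0 says nothing about their transcripts.

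The study replaced the Obp50a-d cluster, which encodes odorant-binding proteins, in a Canton S (B) background and put back altered versions at the same place. Obp50Pos carried the 4 paralogs intact, Obp50Neg carried all of them with premature stop codons, and Obp50a, Obp50b, Obp50c and Obp50d each kept 1 paralog intact among inactivated ones. Obp50NegBCD carried Obp50b with amino acid substitutions (the CD allele) in place of stop codons and no intact paralog, and Obp50cBCD carried that allele with an intact Obp50c. All 8 genotypes, the controls included, therefore carry a reinserted cluster with the residual insertion sequence, and no unedited flies are among them. Each library came from a pool of 30 adult mated flies of 1 sex. There were 4 libraries for each sex and genotype from 2 lines, except for Obp50Pos and Obp50d with 2 libraries from 1 line, so in those genotypes the genotype and the line cannot be told apart. Libraries of 1 line are not labelled as separate cultures, so p-values may measure spread that is in part technical.

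Total counts ranged from 14638498 to 53517693 in the 56 libraries. The study left out 1 female library each of Obp50Pos and Obp50cBCD, and the fits here used the same 54 libraries, 28 male and 26 female, so that female Obp50Pos rested on 1 library. Levels are given in CPM (counts scaled to a common library total) on library sizes scaled by TMM. Several libraries stood apart by their markers. In 7 male libraries, the 21 ovary and yolk markers summed to 665 to 3779 CPM against 24.9 to 199 in the other males, and in 3 female libraries the 13 accessory gland markers summed to 88.8 to 118 CPM against 3.22 to 21.4 in the other females. In the male library Obp50cBCD replicate 4, the testis markers summed to 1359 CPM, below the 2184 to 2831 of every other male library. Whole-fly RNA does not separate fewer cells of a type from less RNA in each cell, and this holds for every difference below.

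Complexes I to V of the inner mitochondrial membrane carry out oxidative phosphorylation. Complex I (ND genes) takes electrons from NADH, complex II (Sdh genes, succinate dehydrogenase) takes them from succinate and is also an enzyme of the tricarboxylic acid cycle, complex III (UQCR genes) passes them to cytochrome c, complex IV (COX genes) passes them to oxygen, and complex V (ATPsyn genes) uses the proton gradient to make ATP. In Drosophila, several of these subunits have second copies elsewhere in the genome, and such copies are known for expression in the testis, where sperm mitochondria fuse and elongate along the sperm tail.

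The copies separated the sexes. All 17 measured copies were higher in males, with a median difference of 6.55 on the log2 scale, and for each of them the lowest male library lay above the highest female library. The rise was called by edgeR's quasi-likelihood test at a false discovery rate (FDR) under 0.05 over all genes tested, and 43.6% of the 15675 genes tested were called higher in males under the same rule, 30.6% with a difference of at least 2-fold. Over copies and subunits together, 56 of 77 members were called in either direction, and so were 13012 of the 15675 genes, so members were not called more often than other genes. How many of all genes had no overlap between the sexes was not counted. Of the tested markers, 15 of 17 testis, 12 of 12 accessory gland and 20 of 21 ovary and yolk genes had none. The smallest male count of any copy was 22, the largest female count 115, and 12 copies had at least 1 female library at 0. A gene could pass the filter on the male libraries alone, and 4 copies had a female median count under 2, so the number of copies that passed is no result in itself. A female count of 0 allows a level of up to 0.0684 to 0.190 CPM (3 counts, depending on the library, counting error only), and the fitted difference of a copy near 0 in females depends on the model's prior count.

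Among the complex I copies, ND-49L stands for a core subunit of the hydrophilic arm, and ND-51L1 and ND-51L2 for the subunit that binds NADH. ND-49L had a lowest, median and highest level of 19.2, 29.3 and 35.2 CPM in the 28 male libraries and of 0, 0.311 and 0.679 CPM in the 26 female libraries. ND-51L1 reached 19.2, 23.8 and 31.0 CPM in males and 0.316, 1.75 and 3.82 CPM in females. ND-51L1 was thus the complex I copy with the highest female level, and its difference of 3.72 ± 0.205 (log2 ± SE) was the smallest of the 6. ND-51L2, its second copy, had a male median of 11.3 CPM and a difference of 4.76. ND-B14.5AL, ND-24L and ND-20L had male medians of 17.3, 8.08 and 4.05 CPM and differences of 6.47, 6.77 and 6.55.

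The 2 copies of complex II were SdhAL, of the catalytic flavoprotein, and SdhBL, of the iron-sulfur protein. SdhBL had the highest median CPM of the copies over all male libraries, although COX4L had the higher male mean in Obp50Pos, Obp50a, Obp50b and Obp50d. SdhBL was at 57.97, 130 and 158 CPM (lowest, median, highest), and it had 0.118, 0.451 and 1.85 CPM in females. Its difference was 7.72 ± 0.251 (adjusted p = 4.26e-29, edgeR). SdhBL lies on the X chromosome, at 18894446 to 18896581 on the plus strand in the coordinates of the deposited files (release 6), and was the single copy on that chromosome. SdhAL had a male median of 21.9 CPM and a difference of 4.94.

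In complex III, UQCR-11L and UQCR-14L differed from each other in their female level. UQCR-11L had 9.28, 12.2 and 18.5 CPM in males and 0.948, 2.39 and 3.85 CPM in females, with no library at 0. Its difference of 2.34 ± 0.125 was the smallest of the 17 copies. UQCR-14L had a male median of 15.5 CPM, 8 female libraries at 0, and a difference of 7.37.

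Complex IV held the copy with the largest fitted difference, COX7AL, whose female median was about 1 count. COX7AL (chromosome arm 3R, 8343669 to 8344310, plus strand) had 9.49, 22.5 and 27.6 CPM in males, and 9 of 26 female libraries were at 0 with a highest level of 0.911 CPM. Its fitted difference was 8.74 ± 0.323 (adjusted p = 6.83e-27, edgeR), and 7.54 to 9.04 over the alternatives, a range that overlaps those of SdhBL and COX4L. COX4L, a copy of the regulatory subunit 4 of the oxidase, had 74.9, 114 and 149 CPM in males and 0, 0.421 and 4.98 CPM in females, a difference of 7.62 ± 0.391. COX6AL, whose parent is levy, had a male median of 21.8 CPM and a difference of 7.19. Among the copies of complex V, ATPsynbetaL, of the catalytic beta subunit, had a male median of 16.6 CPM and a difference of 4.77. ATPsynCF6L, ATPsynGL and ATPsynepsilonL had male medians of 15.5, 9.63 and 4.00 CPM and differences of 7.33, 6.57 and 4.45.

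**Figure D1:**
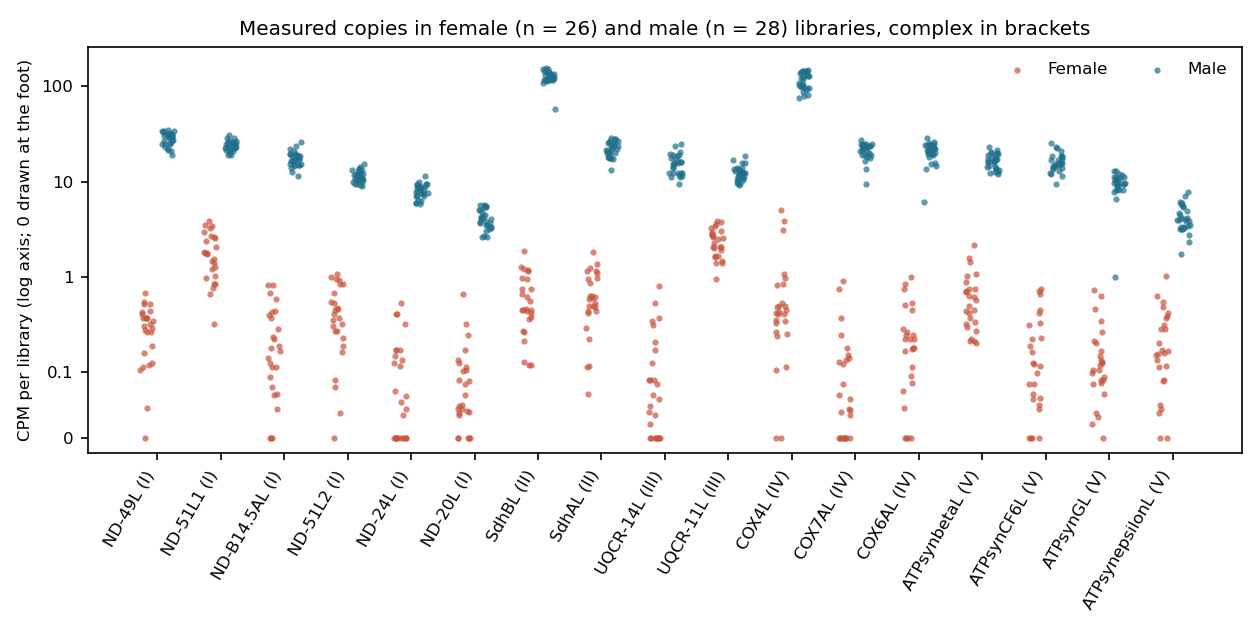
Level of each of the 17 measured copies in every fitted library (CPM, log axis, 0 drawn at the foot), females left and males right of each name, with the complex in brackets. The highest female library lies below the lowest male library for each copy, with UQCR-11L at 3.85 against 9.28 CPM and ATPsynGL at 0.729 against 0.999 CPM.

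Testis markers, like the copies, were higher in males. All 17 tested testis markers were called higher in males, as were all 12 tested accessory gland markers, and the summed testis markers ranged from 1359 to 2831 CPM in male and from 42.6 to 507 CPM in female libraries. The female library at 507 CPM, Obp50c replicate 2, had copies at 9.89 CPM, near the female median of 9.49. The female library with the highest copies, Obp50NegBCD replicate 4 at 15.3 CPM, had testis markers at 103 CPM, near their female median of 107. The male library with the lowest sum of testis markers, Obp50cBCD replicate 4, also had the lowest sum over all copies, 310 CPM against a male median of 488. Its flight muscle markers were at 12189 CPM against a male median of 23842, and the part of these tissues in its copy levels was not tested. In females, COX4L stood at 3.10, 3.88 and 4.98 CPM in the 3 libraries with accessory gland markers and at 0 to 1.07 CPM in the other 23. The other 16 copies did not lie above all other female libraries in those 3.

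Each copy was set against the gene it is named for, on CPM per kb of exon within the same male library, for the 16 copies whose parent was measured. In 14 of them the copy lay below the parent in all 28 male libraries. COX4L came closest, at a median log2 ratio of -0.49 (SD 0.5263), or 71.3% of COX4, with libraries from -1.71 to 0.12. UQCR-11L followed at -0.63, or 64.6% of UQCR-11. Per kb of coding sequence, in place of exon, the median ratios were -1.19 for COX4L and -2.51 for UQCR-11L. On that length, no male library of COX4L or UQCR-11L lay above the parent. SdhBL was at 37.5% of SdhB, ND-B14.5AL at 27.1% of ND-B14.5A, COX7AL at 24.2% of COX7A and ND-49L at 17.7% of ND-49. The remaining 10 ranged from 8.63% (ATPsynGL) down to 1.65% (ATPsynepsilonL against sun, the epsilon subunit gene). ATPsynbetaL, at 1.99% of ATPsynbeta, was next to last.

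**Figure D2:**
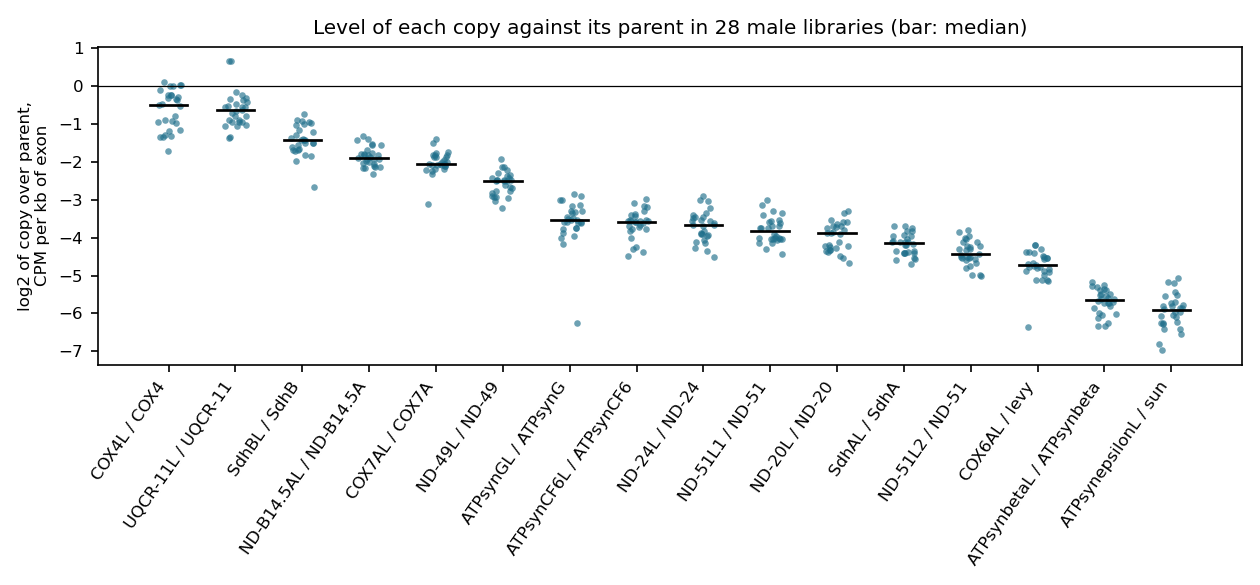
Log2 ratio of each copy to its parent in CPM per kb of exon, 1 point for each of the 28 male libraries, with the median as a bar. COX4L and UQCR-11L have libraries above 0, the other 14 copies have none, and the medians run from -0.49 to -5.92.

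Most copies also shared features that the name rule did not use. Of the 18, 14 lie on another chromosome arm than the parent, 15 have fewer exon blocks than the parent, and 8 have a single block. COX5BL and ATPsynGL have their parents on the same arm, 2L. COX7AL lies on the same arm as COX7A, which is annotated at 8339944 to 8341043 on the minus strand, so that both genes are neighbours on 3R. COX6AL and levy are both on 2R. ND-20L had more blocks than its parent, 2 against 1 in ND-20, while SdhBL and ATPsynGL had as many as theirs. By chromosome, 1 copy and 5 of the 17 parents were on the X. These are descriptions of annotated genes, with no test.

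The subunits themselves differed little between the sexes. Among 60 subunits, 14 were called higher in males and 25 lower, and 21 did not pass the test, against 43.6% of all genes called higher and 39.4% lower. Their median difference was -0.12 on the log2 scale, and the median of all genes tested was 0.10. Only 2 subunits rose by at least 2-fold, against 30.6% of all genes, and 2 fell by as much, UQCR-11 and ND-AGGG, as did 3442 of the 15675 genes. For none of the 60 did the male and female libraries separate, a share that was not counted over all genes. The direction of this split depended on the scaling: with DESeq2's size factors in the same fit, the median of all genes moved to 0.30, and 25 subunits were higher and 13 lower, so 65.8% of the called subunits were higher in place of 35.9%. With a mean count of at least 10 the split was 9 higher and 30 lower (23.1% higher), and without the redo set 17 and 19 (47.2%). Without female Obp50b replicate 3, male Obp50b replicate 1 or male Obp50c replicate 4, 9 subunits were called higher. The summed subunits were at 9313, 13050 and 18308 CPM in males and 10307, 15393 and 23124 CPM in females (lowest, median, highest), with wide overlap. The 9 higher and 13 lower subunits that were called in the same direction under all 11 alternatives and in each of 53 fits with 1 library left out are the ones described as such below.

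Complex II was the one complex with all its subunits called higher in males. SdhA had 376, 477 and 717 CPM in males and 228, 307 and 481 CPM in females, a rise of 0.69 ± 0.0654 (adjusted p = 3.05e-13, edgeR). SdhD, a membrane anchor, had 51.2, 73.9 and 110 CPM against 27.7, 49.95 and 86.3 CPM, a rise of 0.61 ± 0.0773. The 2 ranges overlapped in both genes, with the male medians above the female ones. SdhB rose by 0.43 and SdhC, the other anchor, by 0.29 (adjusted p = 0.0194). SdhA, SdhB and SdhD kept their call in every alternative and every fit with a library left out.

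Complex V went the other way, with 7 subunits called lower in males, 4 not past the test and none higher. ATPsyndelta, of the central stalk, had 160, 331 and 540 CPM in males and 227, 561 and 926 CPM in females, a difference of -0.57 ± 0.0992 (adjusted p = 1.35e-06, edgeR). ATPsyndelta shares 35.6% of its exon bases with CG2962, and their reads were not separable in part. ATPsynG, of the membrane part, had a male median of 160 and a female median of 234 CPM, a difference of -0.50 ± 0.101. ATPsynC, the ring subunit and the member with the highest level per length, 1266 CPM per kb as the male mean, had 1430.04, 2455 and 3935 CPM in males and 1981, 3128 and 4154 CPM in females, a difference of -0.31. Of complex V, ATPsyndelta, ATPsynG and ATPsynCF6 kept their call under every alternative.

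Complex IV had 5 subunits lower, 1 higher and 1 not past the test. COX5B had 147, 372 and 486 CPM in males and 197, 510 and 1056 CPM in females, a difference of -0.64 ± 0.115 (adjusted p = 2.23e-06, edgeR). COX7C had medians of 180 in males and 233 CPM in females, a difference of -0.47 ± 0.103, and COX7A, the parent of COX7AL, was also lower by a held call, at -0.42. COX4, the parent of the highest complex IV copy, rose by 0.19 ± 0.0809 (adjusted p = 0.0333). COX4 was not among the calls that held throughout.

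In complex III, both directions were held. UQCR-Q, a small subunit, had 187, 313 and 372 CPM in males and 136, 196 and 275 CPM in females, a rise of 0.62 ± 0.0664 (adjusted p = 1.15e-11, edgeR). UQCR-11, another small subunit, had 22.1, 66.8 and 129 CPM in males and 90.01, 154 and 473 CPM in females, a difference of -1.26 ± 0.136 (adjusted p = 1.49e-11, edgeR). UQCR-11 was thus lower in males while its copy UQCR-11L was higher, and 7 libraries of UQCR-11 lay within the range of the other sex. UQCR-6.4 was lower at -0.48, with 40.5% of its exon bases shared with POSH, and UQCR-C2, a core protein, was higher at 0.21 (adjusted p = 0.0374).

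Complex I had 7 subunits higher, 11 lower and 15 not past the test. ND-B8, an accessory subunit, had 4.39, 8.34 and 11.9 CPM in males and 0, 2.32 and 6.68 CPM in females, a rise of 2.14 ± 0.257 (adjusted p = 2.97e-10, edgeR). ND-MWFE had 8.44, 14.8 and 24.4 CPM in males and 3.16, 5.63 and 11.8 CPM in females, a rise of 1.33 ± 0.126. These were the only subunits called at least 2-fold higher in males, and they also had the lowest levels per length of the 60. Both share exon bases with other genes, ND-B8 15.4% with Gs1l and ND-MWFE 34.95% with Nrk and TppII. Among the larger core subunits, ND-75, which holds iron-sulfur clusters, and ND-51, which binds NADH, rose by 0.37 each. ND-AGGG fell most, from a female median of 76.6 CPM to a male median of 36.9 CPM, a difference of -1.07 ± 0.139 (adjusted p = 2.51e-09, edgeR). ND-B18 followed at -0.66 ± 0.120, and ND-ACP, the mitochondrial acyl carrier protein, which also serves lipoic acid synthesis, was at -0.63.

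**Figure D3:**
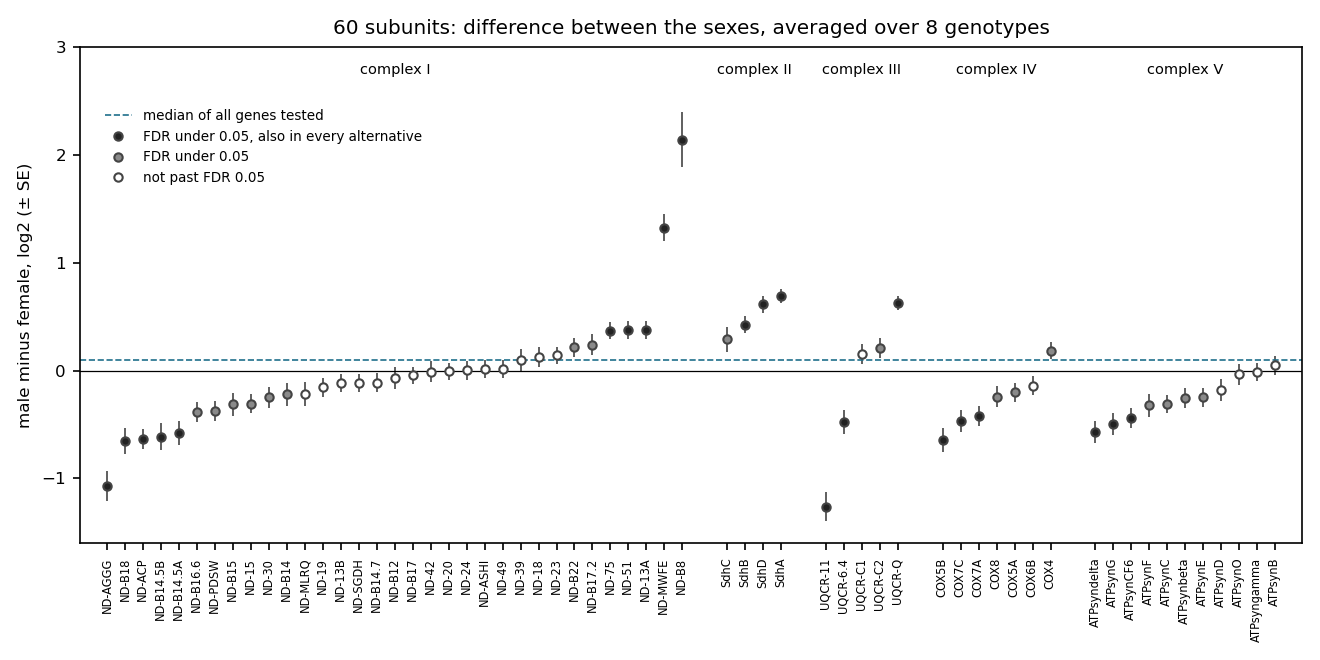
Male minus female difference (log2, ± SE, averaged over 8 genotypes) of the 60 subunits by complex, with the median of all genes tested, 0.10, as a dashed line. Filled black points kept their call in all alternatives and left-out fits, and the 4 Sdh genes of complex II lie at 0.29 to 0.69 while the 11 subunits of complex V lie at -0.57 to 0.05.

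Other genes of energy metabolism were taken from fixed lists, whose counts stand beside 43.6% of all genes called higher and 39.4% lower. Of 13 chain genes with other names, 4 were higher and 4 lower in males. The largest differences were those of Cyt-c-d, the testis cytochrome c (8.18), knon, an ATP synthase subunit D copy known from sperm mitochondria (7.56), and Cyt-c1L, a cytochrome c1 copy (5.60). The common forms Cyt-c-p and Cyt-c1 did not pass the test, at -0.09 and -0.17. Of 25 genes of the tricarboxylic acid cycle and pyruvate dehydrogenase, 18 were higher and 4 lower, led by mAcon2 (7.66), CG10749 (6.97) and CG14740 (6.77). Among 6 carriers and porins, 3 were higher, Porin2 by 6.95, Ant2, an ADP and ATP carrier, by 4.28 and Mpcp1, a phosphate carrier, by 1.29, and 1 was lower. All 5 listed regulators of respiratory genes were lower in males, with srl, the fly PGC-1 gene, at -3.51, Ets97D at -1.74 and TFAM, which packages mitochondrial DNA, at -1.70. All 21 ovary and yolk markers were lower in males as well, and 12 of 15 flight muscle markers were higher, so tissue make-up moved with these lists and its part was not tested.

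In males, the number of members called among the 8 genotypes depended on whether the spread was shared by both sexes. In a joint test of the 8 male means, 5 of 77 members passed (6.49%), against 2.98% of all genes, and with males fitted alone 47 passed. UQCR-6.4 had the smallest p (adjusted p = 0.00968, edgeR), with means of 172 ± 6.73 CPM in Obp50Pos (SD, n = 2), 150 ± 15.2 in Obp50d (n = 2), 118 ± 9.09 in Obp50a, 116 ± 22.9 in Obp50b, 91.5 ± 16.05 in Obp50Neg, 89.2 ± 22.6 in Obp50NegBCD, 86.3 ± 21.0 in Obp50cBCD and 52.9 ± 20.8 in Obp50c (n = 4 each). Obp50Pos and Obp50d, the pair from 1 line each, stood highest, and the gap between Obp50d and Obp50a, the next in order, was larger than the sum of their SDs, while each other pair of neighbours differed by less than that sum. SdhC ran from 31.8 ± 7.23 CPM in Obp50b to 78.1 ± 4.98 in Obp50NegBCD, and SdhB from 162 ± 6.76 in Obp50a to 277 ± 24.4 in Obp50Neg. ND-19, a complex I accessory subunit, and ATPsyngamma, the central shaft of the ATP synthase, were both highest in Obp50NegBCD, at 61.4 ± 3.81 and 360 ± 17.2 CPM. In the 9 contrasts between single genotypes, no member was called in males by edgeR, with 49 members under an unadjusted p of 0.05 in at least 1 contrast, 8 members called by DESeq2 and 7 by the study's mixed model. With males fitted alone edgeR called 33 members in these contrasts, with DESeq2's size factors 2, with a mean count of at least 10 2, without the redo set 3 and without the libraries holding markers of the other sex 1. In the main fit, 1.89% of all genes were called in at least 1 of these 9 contrasts. The shares of all genes under the alternatives are not given, so the alternatives' counts are no result about the members.

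In females more members were called. The joint test passed 32 of 77 members (41.6%), 25 subunits and 7 copies, against 24.6% of all genes, led by ND-19, SdhC, UQCR-C1 (a core protein of complex III), COX4L and ATPsynCF6L. These counts rested on the spread shared by both sexes. With each sex fitted alone, the joint test passed 2 members in females and 47 in males. When counts were summed by sex and line, it passed 5 in females and 0 in males. In males the count moved by over 1.5 times in 26 of 28 fits with 1 library left out, from 1 without Obp50b replicate 3 to 17 without Obp50cBCD replicate 3, and in females it stayed between 23 and 46.

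In females, 27 members were called in at least 1 of the 9 contrasts, against 17.6% of all genes, with 31 calls in all, of which 25 came from Obp50b against Obp50NegBCD, where 24 members were lower in Obp50b and 1 higher, against 14.5% of all genes called, 8.27% lower. SdhC had 32.95, 37.3, 22.8 and 18.8 CPM in Obp50b and 95.5, 68.0, 35.1 and 72.2 CPM in Obp50NegBCD, a difference of -1.28 ± 0.277 (adjusted p = 0.00352, edgeR). Apart from Obp50NegBCD replicate 3, at 35.1 CPM, every Obp50NegBCD library was above every Obp50b library. SdhD fell by 0.83, ND-B22 by 0.96, UQCR-C2 by 0.96 and ND-19 by 0.91 on the log2 scale. COX4L was lower by 2.38, where the 2 highest Obp50NegBCD libraries, at 3.88 and 4.98 CPM, were among the 3 with accessory gland markers. The ovary and yolk markers summed to 33352, 43231, 29204 and 31613 CPM in Obp50b females and to 76698, 64830.0, 56048 and 59801 CPM in Obp50NegBCD females, with no overlap, and their part in these calls was not tested. Without the libraries that held markers of the other sex, which took out Obp50NegBCD replicates 1 and 4, no member was called in this contrast. The same held with counts summed by line and with the study's mixed model. Removing libraries and summing counts both left fewer values in the contrast, and the part of this in the lost calls was not tested. Leaving out 1 library moved the count to 12 without Obp50NegBCD replicate 1, 9 without replicate 2 and 43 without replicate 3, and to 50, 7 and 12 without Obp50b replicates 2, 3 and 4.

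The other female calls were few. In Obp50d against Obp50Neg, UQCR-C2 (-1.13 ± 0.290), ND-19 (-1.08) and SdhC (-1.38) were lower, against 0.663% of all genes called lower. SdhC was at 21.2 and 15.02 CPM in Obp50d and at 41.98, 41.6, 53.8 and 51.3 CPM in Obp50Neg, so the libraries did not overlap. In Obp50a against Obp50Neg, the copies SdhBL (-1.997 ± 0.515) and ATPsynbetaL (-1.82) were lower, against 1.69% of all genes called lower. SdhBL was there at 0.118 to 0.269 CPM in Obp50a and 0.358 to 1.26 CPM in Obp50Neg, levels of a few counts. Every female Obp50a library belongs to the second set and every female Obp50Neg library to the first. The genotype and the set cannot be told apart between these libraries. In Obp50cBCD against Obp50c, SdhB was higher by 0.83 ± 0.206 (adjusted p = 0.0366, edgeR), against 0.153% of all genes called higher, with 306, 257 and 132 CPM against 104, 85.8, 176 and 158 CPM. The SdhB value of line 5 of Obp50cBCD, at 132 CPM, lay between those of both Obp50c lines. No call in the Obp50d, Obp50a or Obp50cBCD contrast was kept with counts summed by line, with the mixed model or without the libraries holding markers of the other sex. The flight muscle markers summed to 11117 and 11663 CPM in Obp50d females and to 7798 to 9131 CPM in Obp50Neg females, and their part was not tested.

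The difference between the sexes itself varied among genotypes for 3 members, against 1.97% of all genes, and all of them were copies. ATPsynCF6L (adjusted p = 0.0243, edgeR) had female means from 0 to 0.346 CPM and male means from 12.5 to 23.9 CPM. COX4L (adjusted p = 0.0353) had its highest female mean, 2.47 ± 2.31 CPM (SD, n = 4), in Obp50NegBCD, which holds 2 of the 3 libraries with accessory gland markers. ND-20L (adjusted p = 0.0498) had female means from 0 to 0.246 CPM. Without the libraries that held markers of the other sex no member passed this test, 24 of 53 fits with 1 library left out passed 1 member and 2 passed 5, and 8 members had an unadjusted p under 0.05 in the main fit.

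By genotype, the summed subunits in males ran from 10908 ± 1556 CPM in Obp50c and 12086 ± 205 in Obp50a to 14839 ± 1576 in Obp50Neg and 15569.5 ± 1516 in Obp50NegBCD (SD, n = 4 each). The highest mean was 1.43 times the lowest in males and 1.65 times in females. In females the order began with Obp50d at 11799.8 ± 436 CPM (n = 2) and ended with Obp50NegBCD at 19432 ± 3801 CPM (n = 4), and each pair of neighbours, Obp50Pos with 1 library included, differed by less than the larger of their SDs. The summed copies in males differed less, from 423 ± 79.9 CPM in Obp50cBCD to 514 ± 14.6 CPM in Obp50Pos. The Obp50cBCD mean includes replicate 4, the library with the low testis markers, at 310 CPM, against 425, 464 and 492 CPM in replicates 1, 2 and 3.

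Members were also compared between lines of the same genotype, in a fit with a mean for each sex and line, whose counts are not to be ranked against those of the genotype fit. In the 6 genotypes with 2 lines, 63 of 77 members were called between lines in at least 1 genotype with both sexes averaged, against 53.7% of all genes. With both sexes averaged, Obp50Neg and Obp50NegBCD had no member called by edgeR, with 3 and 10 members under an unadjusted p of 0.05. Of all genes, 0.115% and 0.715% were called. In Obp50NegBCD females alone, 5 subunits of complex I, 2 of complex III and 1 of complex V were called, all in the same direction. A complex I copy was called there in the opposite direction, against 6.97% of all genes called. No member was called in Obp50NegBCD males or in either sex of Obp50Neg. With both sexes averaged, 37 members were called in Obp50c and all were lower in line 24 than in line 6 (28.4% of all genes were called, 16.4% lower). In Obp50a, 34 of 37 called members were lower in line 1 than in line 11 (24.2%, and 9.65% lower). In Obp50cBCD, 38 of 40 were higher in line 21 than in line 5 (21.8%, and 15.3% higher), and in Obp50b 12 of 13 were higher in line 19 than in line 4 (12.4%, and 3.44% higher). By smallest p, the members of Obp50c were COX7A (-1.12), ND-B14 (-1.18), ATPsynD (-0.99), ATPsynF (-1.17) and ND-B16.6 (-0.96) on the log2 scale. Those of Obp50a were ND-MLRQ (-0.81), ND-51L1 (0.99), ND-B14.5A (-0.77), ND-51 (-0.62) and ATPsynB (-0.59). Those of Obp50cBCD were UQCR-C1 (0.89), ND-18 (0.87), ATPsyngamma (0.83), SdhB (0.85) and ATPsynO (0.94). In Obp50b they were ND-B8 (1.88), UQCR-11L (-0.76), ND-B14.5B (0.66), ND-30 and ND-B14.5A. Both lines of a genotype share the intended alleles. Leaving out 1 library gave 10 to 20 members in Obp50a for 7 of its 8 libraries, and in Obp50b 33 without female replicate 1 and 3 to 8 without 6 others.

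The line difference in Obp50a lay in females. In females 57 of 77 members were called, 53 of them lower in line 1, against 34.6% of all genes (17.7% lower), and in males none of the 77 was called by edgeR, with 1 member under an unadjusted p of 0.05 and 0.376% of all genes called. The difference between the sexes was itself called for 39 members, against 22.3% of all genes. ND-B14.5A, an accessory subunit, had 66.3 and 58.2 CPM in the females of line 1 and 168 and 159 CPM in those of line 11, against 61.2 and 59.8 CPM in the males of line 1 and 77.3 and 56.0 CPM in those of line 11. The female lines did not overlap and the male lines did. ND-MLRQ was at 79.7 and 76.0 CPM against 189 and 206 CPM in females, and at 93.3 and 88.4 against 102 and 120 CPM in males, so that its lines did not overlap in either sex and lay closer in males. The copy ND-51L1 was higher in line 1 females, at 3.46 and 3.23 CPM against 0.316 and 1.01 CPM, while its parent ND-51 was lower there, at 128 and 121 CPM against 226 and 270 CPM. In males, line 1 belongs to the first set of libraries and line 11 to the second, so the line and the set cannot be told apart there. The female libraries of both lines belong to the second set of libraries. In them the ovary and yolk markers summed to 36578 and 40014 CPM in line 1 and to 56907 and 61762 CPM in line 11, and the flight muscle markers to 11087 and 11969 CPM in line 1 and 6356 and 7092 CPM in line 11. The part of these tissues in the line difference was not tested. Without Obp50a female replicate 1 the female count was 25, and the count for the difference between the sexes lay between 8 and 20 without any one of 7 of the 8 libraries.

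In Obp50b, 29 members were called in females, 27 of them higher in line 19 (21.3% of all genes, 7.65% higher), and none in males by edgeR (1 under an unadjusted p of 0.05, 0.108% of all genes). The difference between the sexes was called for 11 (12.8%). ND-B14.5B had 108 and 171 CPM in line 19 females and 53.4 and 53.9 CPM in line 4 females, and 55.1 to 63.5 CPM in the 4 male libraries. ND-B8 was at 2.85 and 2.81 CPM in line 19 females against 0.627 and 0 CPM in line 4 females, and at 10.9 and 10.1 against 4.57 and 8.54 CPM in males. UQCR-11L, a copy, was lower in line 19, at 1.39 and 2.07 against 3.85 and 3.40 CPM in females. The flight muscle markers summed to 4939 and 7251 CPM in line 19 females and to 10446 and 10206 CPM in line 4 females, and their part in the line difference was not tested. The female count was 9, 15 and 11 without Obp50b female replicates 2, 3 and 4, and the count for the difference between the sexes fell to between 3 and 6 without 6 of the 8 libraries in turn.

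In Obp50c and Obp50cBCD both sexes took part. In Obp50c, 27 members were called in females (26.7% of all genes) and 12 in males (11.7%), and the difference between the sexes was called for 2 (7.43%). COX7A had 74.7 and 56.2 CPM in line 24 females and 160 and 170.5 CPM in line 6 females, and 53.99 and 55.1 against 106 and 96.8 CPM in males. ND-B14 was at 54.4 and 48.9 against 147 and 175 CPM in females and at 69.7 and 62.98 against 102 and 117 CPM in males. For both genes neither sex showed an overlap between the lines. The ovary and yolk markers of the line 24 females, at 16119 and 13797 CPM, were below those of line 6, at 43236 and 48515 CPM, and their part in the difference was not tested. In males, the accessory gland markers summed to 2998 and 3227 CPM in line 24 and 6228 and 6864 CPM in line 6, and the flight muscle markers to 27666 and 27343 CPM against 20501 and 21037 CPM, which was not tested either. The male count of Obp50c was 2, 3 and 3 without male replicates 1, 2 and 4, and the female count 17 without female replicate 4. In Obp50cBCD, 30 members were called in males (12.2% of all genes) and 9 in females (7.26%), and none for the difference between the sexes by edgeR, with 9 under an unadjusted p of 0.05. ATPsyngamma had 483 and 436 CPM in line 21 males and 216 and 197 CPM in line 5 males. UQCR-C1 had 763 and 597 against 307 and 327 CPM in the same males. The flight muscle markers summed to 30826 and 31327 CPM in line 21 males and to 23347 and 12189 CPM in line 5 males, the last being replicate 4 with the low testis markers, and their part was not tested. Without male replicate 1 or 2 of Obp50cBCD, 9 and 19 members were called in males, and without female replicate 1 or 2, 0 and 1 in females, where line 5 had 1 fitted library. Every library of line 21 belongs to the first set and none of line 5 does, so the line and the set cannot be told apart in Obp50cBCD.

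**Figure D4:**
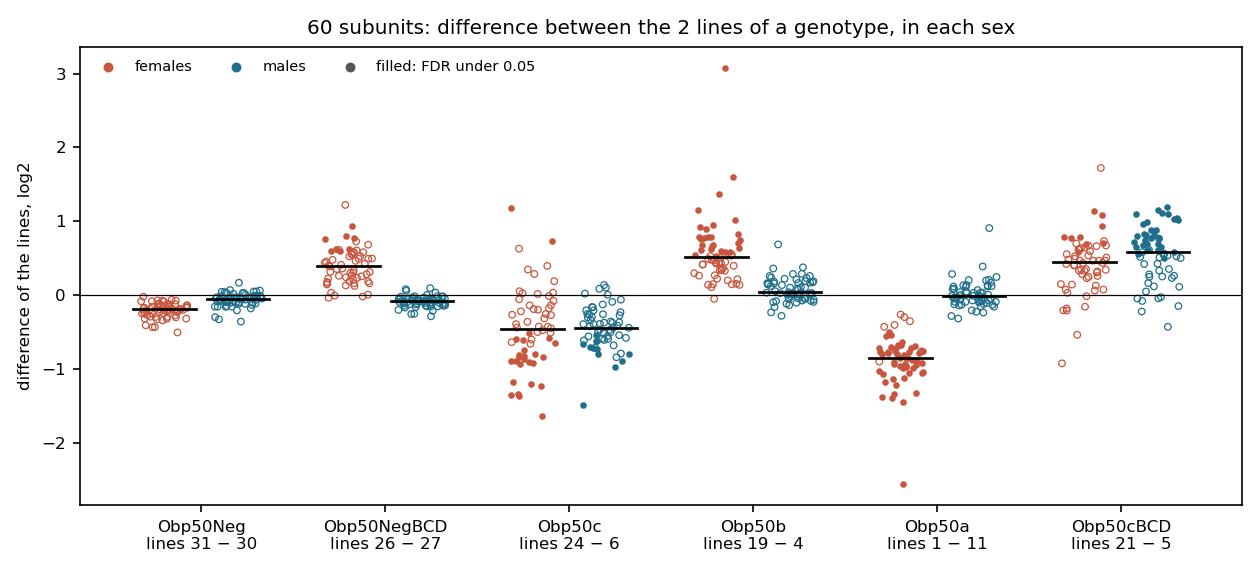
Difference between the 2 lines of each genotype for the 60 subunits (log2, first line named minus second), females left and males right, filled where FDR was under 0.05 and with the median as a bar. In Obp50a the female median is -0.85 and the male median -0.02, while in Obp50c the medians are -0.46 and -0.44.

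**Figure D5:**
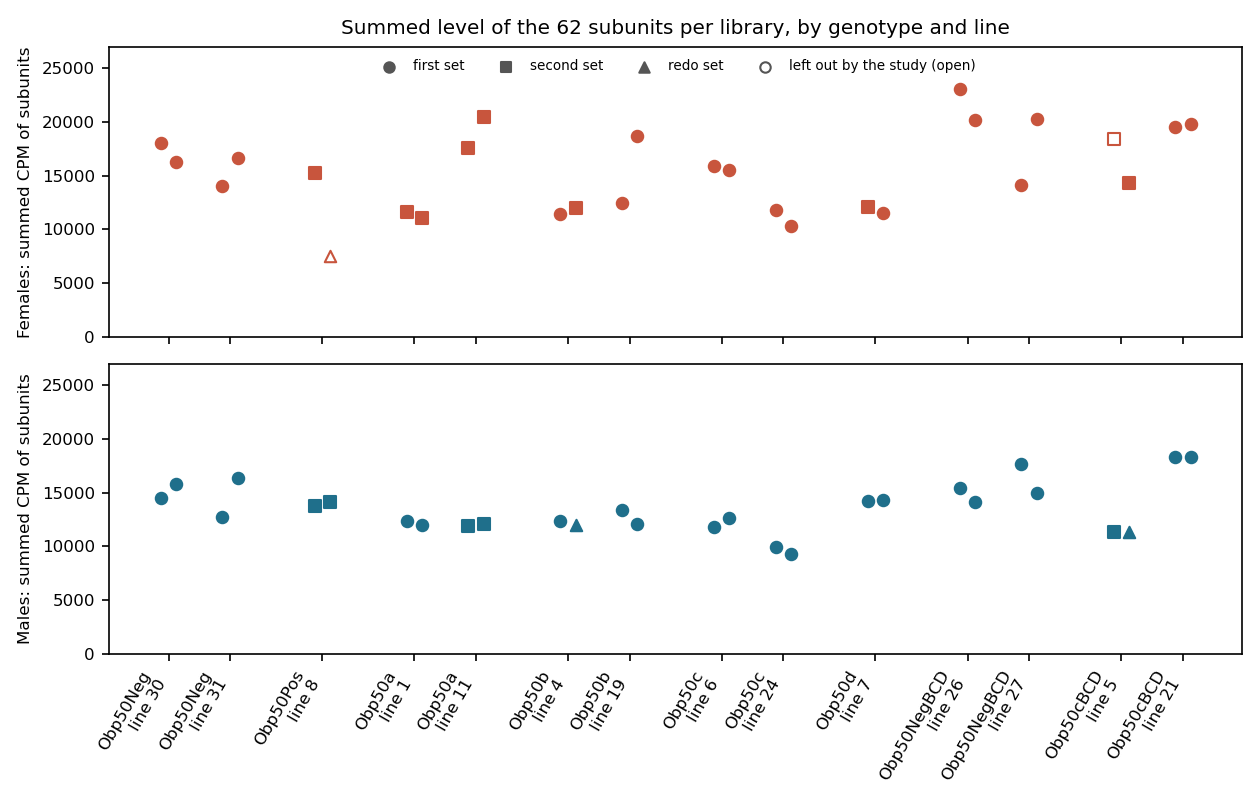
Summed CPM of the 62 subunits in every library, by genotype and line, with the set of libraries as the marker shape and the libraries left out by the study drawn open. Libraries of Obp50a line 1 females sit at 11600 and 11060 against 17614 and 20445 CPM in line 11, and the males of both lines between 11899 and 12369 CPM.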

How the data were processed

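RNA of pooled whole flies was depleted of ribosomal RNA and sequenced as paired reads. The deposited counts are whole fragments per gene. The authors trimmed reads with AfterQC, aligned them with GSNAP to release 6 and counted uniquely mapped fragments over exons with featureCounts, without strand and with no normalization, so overlapping genes on opposite strands and close copies can lose fragments. The exon length in the same table is the authors' value.

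Groups were taken from the sample labels. Genes were kept where at least 25% of libraries were above 0 and the median count was at least 2, which left 15675 genes, as in the study's own filter. Counts were fitted with edgeR 4.0.16 (quasi-likelihood, TMM, R 4.3.3) with a mean for each of 16 sex and genotype groups, or 28 sex and line groups, and p-values were adjusted by Benjamini-Hochberg over all genes kept, with calls at an FDR under 0.05. The study's methods use a mixed model with line as a random term, which was run with lme4 1.1.37 and lmerTest 3.1.3 as an alternative for the sex comparison and the 9 contrasts. Other alternatives were DESeq2 1.42.0, its size factors, limma 3.58.1 with voom and line as a block, other filters, all 56 libraries, summed counts, each sex alone, the set of libraries as a term and leaving out each library. Library sets (first, second and redo) were read from the header line that came with each library's own counts, since the sample labels do not name them. The second and redo sets were named there, and the first set holds every library whose header named neither. On simulated data with 200 genes changed 2-fold, the sex test recovered 197 of them and the female joint test 43. The female contrast of Obp50b with Obp50Neg recovered 38, the line contrast of Obp50c 15 and the interaction test 0. All but the sex test thus missed most changes of that size at the simulated dispersion of 0.1042. The line fit to the real counts had a common dispersion of 0.0538, so the 15 do not measure how much that fit misses.

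Members and lists were chosen with earlier results of these data known. In the sex comparison the 2 highest and 2 lowest called members per complex are named, and in other tests every called member or the 5 with the smallest p. SdhB, SdhC, ND-51, ND-75, ND-ACP, COX7A, ATPsynC, ATPsynCF6, the parents of copies, Cyt-c-p and Cyt-c1, the members named in a single sex of the line comparisons and COX4L in Obp50b against Obp50NegBCD were named after their values were seen. Removing libraries with markers of the other sex or of the redo set, the comparison of lines within each sex, and the ratio per coding length, from an Ensembl annotation, were added after the data were seen.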

Additional observations from a re-analysis of the deposited data

Results flagged for a closer look

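Sums of members were screened within each sex and genotype group of 4 libraries for a library far from the other 3, and 8 of 110 such sums stood out, where chance gives about 1 in 20. In females, the complex II subunits of Obp50NegBCD replicate 3 summed to 539.1 CPM against 769.1 to 794.8 CPM in the other 3 libraries, and the complex V copies of the same library to 0.7154 CPM against 1.552 to 1.698 CPM. The complex IV copies of female Obp50Neg replicate 4 summed to 3.589 CPM against 0.6969 to 0.8256 CPM, and this is 1 of the 3 female libraries with accessory gland markers.

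In males, the complex II copies of Obp50cBCD replicate 4 summed to 71.27 CPM against 159.9 to 173.2 CPM, in the library with the lowest testis markers. The complex II copies of Obp50c replicate 3 summed to 167.3 CPM against 151.6 to 154 CPM, and the complex V copies of Obp50c replicate 4 to 64.22 CPM against 43.95 to 46.72 CPM. In Obp50b replicate 4, the complex I copies summed to 103.5 CPM against 88.94 to 90.92 CPM and the complex IV copies to 167.8 CPM against 187.7 to 191.6 CPM.

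The difference between the sexes varied among the genotypes for ATPsynCF6L (adjusted p = 0.0243, edgeR), COX4L (adjusted p = 0.03529) and ND-20L (adjusted p = 0.04982), all copies with female levels near 0.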

How the results depend on the processing

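The 17 copies were called higher in males under each of the 11 alternatives and without any one of 53 libraries. Per kb of exon, 14 of 16 copies stayed below their parent in males. No named member that was called changed direction, but the split of called subunits turned from mostly lower to mostly higher in males with DESeq2 and with its size factors, and every count below is of members, with the main count first. Where a count moved, the cause was not tested. Fits with summed counts or with libraries removed rest on fewer values. The shares of all genes called under the alternatives are not given. Subunits higher in males numbered 14, and 25 with DESeq2, 25 with its size factors, 9 with counts summed by sex and line, 9 with a mean count of at least 10 and 9 with set as a term, while the 25 lower became 13 with DESeq2 and 13 with its size factors. The joint test in males gave 5, and 19 with DESeq2, 9 with its size factors, 10 with all 56 libraries, 0 with summed counts, 47 with each sex alone, 0 with limma-voom and a line block, 8 with a mean count of at least 10, 8 without a filter, 1 with set as a term, 1 without libraries holding other-sex markers and 10 without the redo set. In females it gave 32, and 50 with DESeq2, 5 summed, 2 alone, 12 with voom and 12 without other-sex markers. The interaction gave 3, and 11 with DESeq2, 1 with all 56, 0 summed, 0 with voom, 1 with set, 0 without other-sex markers and 1 without the redo set. The 9 male contrasts gave 0, and 8 with DESeq2, 2 with its size factors, 33 alone, 2 with a mean count of at least 10, 7 with the mixed model, 1 without other-sex markers and 3 without the redo set. The 9 female contrasts gave 27, and 14 with all 56, 0 summed, 1 alone, 9 with voom, 0 with the mixed model and 0 without other-sex markers, and Obp50b against Obp50NegBCD among them gave 25, and 14, 0, 1, 9, 0 and 0 in the same order.

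Between lines with the sexes averaged, Obp50c gave 37, and 22 with all 56. Obp50a gave 37, and 10 with all 56, 15 with set and 24 without other-sex markers. Obp50b gave 13, and 20 with DESeq2, 2 with all 56, 29 with a mean count of at least 10 and 20 without a filter. Obp50cBCD gave 40, and 23 with size factors, 25 with all 56 and 23 with a mean count of at least 10. Within a sex, Obp50a females gave 57, and 21 with all 56, its males 0, and 1 without other-sex markers, and its difference between the sexes 39, and 5 with all 56 and 20 without other-sex markers. Obp50b females gave 29, and 12 with all 56 and 44 with a mean count of at least 10, and its difference 11, and 17 with DESeq2, 2 with all 56 and 5 without the redo set. Obp50c males gave 12, and 3 with all 56, 32 without other-sex markers and 20 without the redo set. Obp50cBCD females gave 9, and 2 with size factors, 3 with a mean count of at least 10, 4 without a filter, 20 without other-sex markers and 17 without the redo set, and its males 30, and 19 with DESeq2, 17 with size factors, 16 with a mean count of at least 10, 17 without a filter and 19 without the redo set.

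With 1 library left out in turn, the ranges were 52 to 61 members by sex, 9 to 15 subunits higher and 23 to 32 lower, 1 to 17 in the male and 23 to 46 in the female joint test, 1 to 5 in the interaction, 0 to 5 in the male and 11 to 52 in the female contrasts and 7 to 50 in Obp50b against Obp50NegBCD. Between lines they were 61 to 64 in any genotype, 25 to 35 in Obp50c, 10 to 43 in Obp50a, 3 to 33 in Obp50b and 31 to 41 in Obp50cBCD. By sex they were 25 to 59 in Obp50a females, 8 to 39 for its difference between the sexes, 9 to 42 in Obp50b females, 3 to 14 for its difference, 17 to 22 in Obp50c females, 2 to 16 in its males, 0 to 1 in Obp50cBCD females and 9 to 35 in its males. The lone libraries of a line were assumed to vary like the other groups. Per coding length, 9 of 16 copy ratios moved by more than their SD and none changed sign. The RefSeq coding length was not run, and female Obp50Pos, with 1 library, could not be left out. No paired analysis was possible because replicate numbers were given in accession order and pair no samples. Line, which both sexes share, could be used as a block instead, and limma-voom with line as a block called 58 members by sex against 56. Female copy levels near 0 are limited by depth.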

Other observations

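The female libraries that the study left out gave values of their own. In Obp50Pos replicate 2 the subunits summed to 7546 CPM, below the 10307 CPM of the lowest fitted female library, and the copies to 22.99 CPM, above the 15.3 CPM of the highest. In Obp50cBCD replicate 3 the subunits summed to 18407 CPM and the copies to 9.39 CPM, both within the range of the fitted females.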
